A study of Homo sapiens with 30 samples.

Results

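Heat shock chaperones are proteins that fold other proteins, and the 10 genes described here encode the chaperones and co-chaperones of that response that were chosen by name: DNAJB1, DNAJA1, HSPA8, HSPA1A, HSPA1B, HSPH1, HSP90AA1, HSP90AB1, HSPD1 and HSPB1. They are 10 of 22427 genes in a SLAM-seq series on 22Rv1, an established human line of castration-resistant prostate cancer, and the transcript with the highest summed reads stands for each gene. In SLAM-seq, RNA made in the presence of 4-thiouridine (s4U) is alkylated by iodoacetamide after extraction and can be told from older RNA by its T-to-C conversions. Every group carried s4U. The 0 h group was collected after a 30 min pulse with 800 µM s4U and had no compound. The other 9 groups then stayed in 800 µM s4U with KB742 (1.2 µM), KI-ARv-03 (4 µM) or only the solvent DMSO for 2, 4 or 8 h, and the series title names selective inhibitors of CDK9, a kinase that releases RNA polymerase II into elongation. Between 0 h and the DMSO groups, the time in culture, in s4U and in DMSO changed together, so their effects cannot be told apart. Each of the 10 groups has 3 libraries from this single cell line. The labels do not say that the libraries came from separate cultures, so p-values measure the spread between libraries, which may be technical.

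In the heat shock response, the transcription factor HSF1 binds heat shock elements, which are repeats of the unit GAA or its complement TTC, and raises the transcription of chaperone genes. HSP70 proteins (HSPA8, which is made at all times, and the inducible HSPA1A and HSPA1B) bind unfolded clients with the help of J-domain proteins (DNAJB1, DNAJA1), and HSPH1 of the HSP110 family exchanges their nucleotide. HSP90AA1 and HSP90AB1 encode the cytosolic HSP90 forms, whose clients include kinases and steroid receptors. HSPD1 is the mitochondrial chaperonin HSP60, and HSPB1 is the small heat shock protein HSP27. DNAJB1 itself acts back on the response by helping HSP70 to hold HSF1 inactive.

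The promoters of 5 members are shown because their levels moved in different ways in the results that follow: DNAJB1 fell with both compounds, HSPA1A and HSPA1B fell with time under DMSO, HSP90AA1 rose with time under DMSO, and HSPH1 was higher with KI-ARv-03. Each is the 250 bases before the RefSeq start site in GRCh38.p14 that lies nearest to the start of the counted transcript, at chr19:14518398-14518647 on the minus strand for DNAJB1, chr6:31815293-31815542 on the plus strand for HSPA1A, chr6:31827488-31827737 on the plus strand for HSPA1B, chr14:102087045-102087294 on the minus strand for HSP90AA1, and chr13:31162389-31162638 on the minus strand for HSPH1. All are written 5′ to 3′ on the gene's strand, and capitals mark the GAA and TTC units of a pair of heat shock element units, searched as GAANNTTC and TTCNNGAA, each of which reads the same on both strands.
DNAJB1: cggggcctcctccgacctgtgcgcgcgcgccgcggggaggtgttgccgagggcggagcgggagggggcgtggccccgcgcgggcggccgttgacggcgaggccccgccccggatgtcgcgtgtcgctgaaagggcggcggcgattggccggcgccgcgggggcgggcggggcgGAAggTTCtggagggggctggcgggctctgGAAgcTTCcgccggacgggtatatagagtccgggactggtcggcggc
HSPA1A: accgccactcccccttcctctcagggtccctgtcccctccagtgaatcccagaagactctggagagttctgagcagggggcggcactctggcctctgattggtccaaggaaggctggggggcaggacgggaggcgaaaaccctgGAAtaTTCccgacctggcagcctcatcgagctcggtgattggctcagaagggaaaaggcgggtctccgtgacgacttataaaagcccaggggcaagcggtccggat
HSPA1B: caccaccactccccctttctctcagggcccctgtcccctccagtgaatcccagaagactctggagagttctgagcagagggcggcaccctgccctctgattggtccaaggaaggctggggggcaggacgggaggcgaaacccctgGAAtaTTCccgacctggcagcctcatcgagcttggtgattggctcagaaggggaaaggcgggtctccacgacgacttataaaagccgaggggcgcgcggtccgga
HSP90AA1: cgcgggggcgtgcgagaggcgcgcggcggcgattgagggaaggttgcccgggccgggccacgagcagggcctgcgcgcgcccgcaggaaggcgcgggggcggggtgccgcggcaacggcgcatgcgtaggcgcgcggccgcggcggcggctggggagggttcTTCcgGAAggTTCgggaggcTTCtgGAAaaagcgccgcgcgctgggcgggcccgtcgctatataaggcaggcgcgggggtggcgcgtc
HSPH1: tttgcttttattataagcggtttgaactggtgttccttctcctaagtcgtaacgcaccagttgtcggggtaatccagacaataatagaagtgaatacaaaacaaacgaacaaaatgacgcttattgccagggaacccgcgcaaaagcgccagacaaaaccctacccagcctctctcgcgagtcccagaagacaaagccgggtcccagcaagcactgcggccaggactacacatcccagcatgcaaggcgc
DNAJB1 held 2 such matches, starting at -77 and -47 from the start site. HSPA1A and HSPA1B held 1 each, at -106 and -105, and HSP90AA1 held 3, of which those at -88 and -83 overlap. The HSPH1 window held no match, and its start site lies 461 bases from the start of the counted transcript, the farthest of the 10 members. A pair was found in 8 of the 10 members and in 11.6% of all 35116 promoters in the table. Another start site of HSP90AB1 held a pair too, which made 9 of 10 members over all their listed promoters. A run of 3 units, GAANNTTCNNGAA or TTCNNGAANNTTC, was found in HSPA8, HSP90AA1 and HSPD1 and in 0.441% of all promoters. A match is a description of the letters, and these members were chosen as known heat shock genes.

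**Figure D1:**
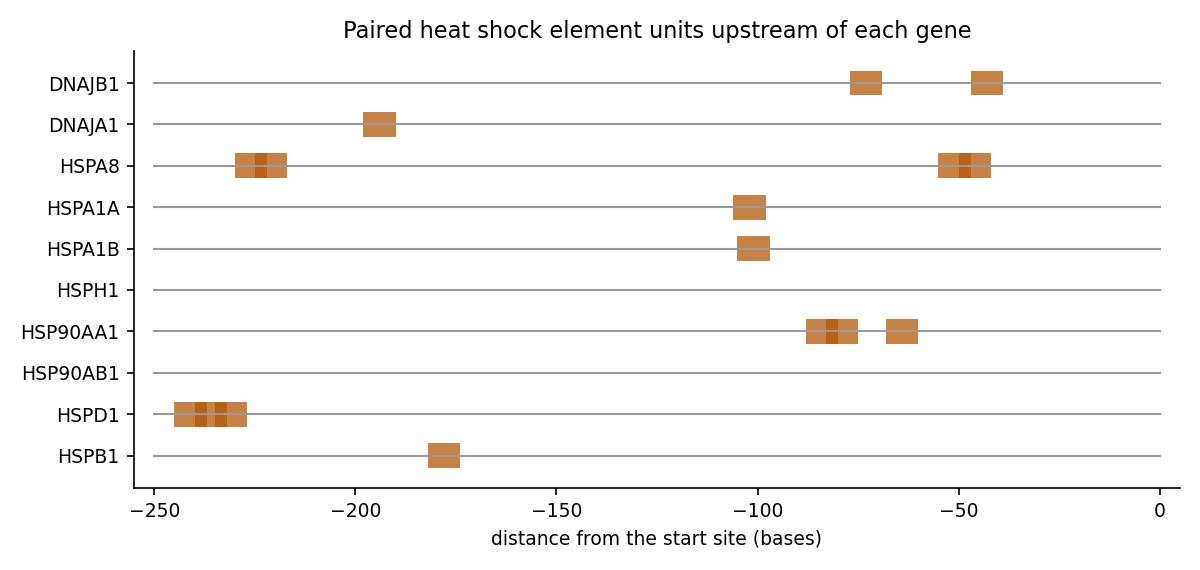
Position of each pair of heat shock element units in the 250 bases before the start site of the 10 members, with the distance from the start site in bases on the x axis and 1 line per gene. Boxes are 8-base matches and darker stretches are overlapping matches; 8 of the 10 genes hold at least 1, and the HSPH1 and HSP90AB1 windows hold none.

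Between 1417401 and 3974247 reads per library fell on the genes used, out of 3376884 to 9265131 reads behind the deposited values. A level is a CPM value, the count of 3′-end reads relative to the library's total, after rescaling by TMM factors, which set the bulk of genes equal between libraries, and it is not compared between genes here. A conversion level is the deposited fraction of conversions for a transcript in percent; whether reads or T positions are counted is not given here by any source, and values behind fewer than 20 reads were not used. All 9 luminal prostate markers checked (KLK3 and others) passed the filter on low counts, with a summed level of 659 to 1198 CPM, while 0 of 3 basal, 0 of 3 endothelial and 0 of 4 immune markers did, with KRT14, VWF, CDH5 and PTPRC at 0 in every library; of 4 stromal markers only COL1A1 passed, and COL1A2 was at 0. In these bulk samples, fewer cells of a kind and less RNA per cell cannot be told apart. A set of 3 libraries stood apart: 0 h replicate 3 and KB742 2 h replicate 2 correlated least with their own groups (mean r 0.879 and 0.870), and KI-ARv-03 4 h replicate 1 had a mean conversion over genes of 1.18% beside 0.382% and 0.422% in the other libraries of its group. Results that change without these 3 libraries are given both ways.

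DNAJB1, the J-domain co-chaperone that delivers clients to HSP70, had less RNA with either compound than with DMSO at every time. At 0 h its level was 74.0, 70.3 and 98.8 CPM in the 3 libraries. With DMSO it was 48.4, 46.7 and 51.7 CPM at 2 h, 60.8, 59.3 and 86.7 CPM at 4 h, and 49.9, 113.2 and 81.1 CPM at 8 h. The DMSO libraries at 4 and 8 h spread widely and overlapped the 0 h libraries. With KB742 the level was 19.8, 24.9 and 13.4 CPM at 2 h, 12.2, 11.4 and 22.4 CPM at 4 h, and 12.6, 7.0 and 19.7 CPM at 8 h. With KI-ARv-03 it was 26.8, 14.0 and 17.5 CPM at 2 h, 12, 11.8 and 9.7 CPM at 4 h, and 15.4, 6.8 and 6.7 CPM at 8 h. At each time the highest compound-treated library was below the lowest DMSO library, so the groups did not overlap. The counts behind these values were 13 to 391 reads per library.

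**Figure D2:**
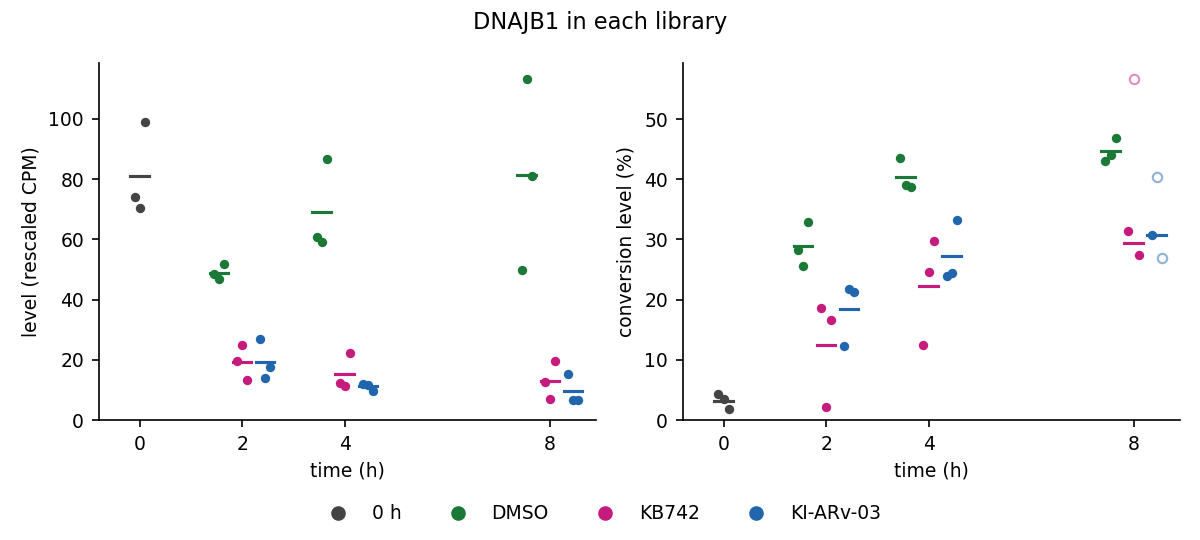
DNAJB1 level in rescaled CPM (left) and conversion level in percent (right) against time in h, 1 point per library, with bars at the group means; open points are values behind fewer than 20 reads, which enter no mean or test. With either compound the level stayed at or below 26.8 CPM, and all DMSO libraries were at 46.7 CPM or above.

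The test of these levels was limma on log2(CPM + 1) over all 30 libraries and 11430 genes, with Benjamini-Hochberg adjustment over those genes and a call at adjusted p under 0.05; all 10 members passed the filter. Fold changes are on the log2(CPM + 1) scale, which understates the change of low genes. At 2 h the DNAJB1 difference from DMSO was -1.33 ± 0.37 (SE) with KB742 and -1.34 ± 0.37 with KI-ARv-03, and neither was called (limma adjusted p = 0.773 and 0.818). At that time 0 of 10 members were called with either compound, as were 0.0262% of all genes tested in each comparison; at an unadjusted p under 0.05 it was 1 member, DNAJB1, with each compound, and edgeR and DESeq2 also called 0. At 4 h DNAJB1 fell by 2.14 with KB742 (limma adjusted p = 0.00719) and by 2.51 with KI-ARv-03 (adjusted p = 0.000788), from a mean of 68.9 ± 15.4 CPM (SD, n = 3) with DMSO to 15.3 ± 6.12 and 11.2 ± 1.29 CPM. At 8 h it fell by 2.58 with KB742 (adjusted p = 0.000194) and by 2.98 with KI-ARv-03 (adjusted p = 2.28e-05), to 13.1 ± 6.40 and 9.63 ± 5.03 CPM from 81.4 ± 31.7 CPM. DNAJB1 was the 1 member called at 4 h with each compound, where 0.114% of all genes were called with KB742 and 0.0700% with KI-ARv-03. The compounds were given at different doses and shared their DMSO libraries, so their values stand side by side with no test between them.

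The KB742 result at 4 h was the least secure of the 4 calls. It was lost without DMSO 4 h replicate 3 (limma adjusted p = 0.0922), without KB742 4 h replicate 1 (0.0851) or replicate 2 (0.115), and with the scaling as deposited (0.0595), while the difference stayed between -2.02 and -1.85 in those fits. With the 2 groups fitted alone, the KB742 calls at 4 and 8 h were lost (0.218 and 0.0641). The KI-ARv-03 calls at 4 and 8 h and the KB742 call at 8 h held when each library was left out in turn. Under DMSO, the DNAJB1 level did not pass the test against 0 h at any time: the log2 differences were -0.70, -0.24 and -0.05 at 2, 4 and 8 h (limma adjusted p = 0.432, 0.690 and 0.913), and the sign of the 8 h value turned without 0 h replicate 3 (0.08) or DMSO 8 h replicate 1 (0.26).

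The conversion level of DNAJB1 was the highest by group mean, in each of the 10 groups, among the members with a usable value. At 8 h HSPA1A had none, and DNAJB1 with KI-ARv-03 had 1 library. It was 4.25, 3.42 and 1.75% at 0 h, and with DMSO 28.2, 25.7 and 32.9% at 2 h, 43.5, 39.0 and 38.6% at 4 h, and 43.0, 44.1 and 46.9% at 8 h. Against 0 h it rose at each time (limma on the arcsine scale, adjusted p = 6.29e-06, 9.22e-09 and 5.52e-10). With KB742 it was 18.7, 2.25 and 16.7% at 2 h, 12.5, 24.7 and 29.7% at 4 h, and 31.4 and 27.5% in the 2 libraries with enough reads at 8 h. With KI-ARv-03 it was 12.4, 21.7 and 21.2% at 2 h, 23.9, 24.4 and 33.2% at 4 h, and 30.7% in the 1 usable library at 8 h. Every one of these values lay below all DMSO values of its time. All but that of KB742 2 h replicate 2 lay above the 0 h values. Of the values left out at 8 h, KB742 replicate 2 was at 56.6% from 14 reads, above the DMSO values. KI-ARv-03 replicates 2 and 3 were at 40.4% and 26.9%, from 13 and 16 reads.

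Against DMSO, DNAJB1 conversion was lower with KB742 by 16.4 percentage points at 2 h, 18.1 at 4 h and 15.3 at 8 h (limma adjusted p = 0.0288, 0.00859 and 0.0347). The 2 h call was lost without KB742 2 h replicate 2, the library that stands apart at 2.25% (adjusted p = 0.271), and without DMSO 2 h replicate 3 (0.148). It was lost too without all 3 libraries that stand apart (0.204). The 4 h call was lost without KB742 4 h replicate 1 (0.0948), and the 8 h call without DMSO 8 h replicate 2 (0.0668) or replicate 3 (0.0906). Both the 2 h and the 8 h call were lost when 25 genes without residual spread, left out of the main fit, were kept (0.0832 and 0.064). With KI-ARv-03 the means were 10.5 points lower at 2 h and 13.2 points lower at 4 h, neither of them called (adjusted p = 0.274 and 0.101), and 8 h could not be tested. When the 2 groups were fitted alone, limma called both KI-ARv-03 differences (adjusted p = 0.0365 and 0.00522). The KB742 call at 2 h was lost in that setting (0.103). On a log2 scale of conversion no KB742 difference of DNAJB1 was called (adjusted p = 0.266, 0.353 and 0.564).

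DNAJA1, a J-domain co-chaperone of HSC70, was called between compound and DMSO by conversion, and at no time by level. Under DMSO its conversion was 0.542, 0.717 and 0.255% at 0 h, 5.97, 2.99 and 2.77% at 4 h, and 5.90, 11.8 and 12.4% at 8 h. The KB742 libraries had 0.503, 0.623 and 1.26% at 4 h and 1.08, 1.11 and 0.734% at 8 h. With KI-ARv-03 it was 1.10, 2.23 and 0.849% at 8 h. At 8 h every compound value was below every DMSO value, and the group means were 10.0 ± 3.61% with DMSO, 0.973 ± 0.207% with KB742 and 1.39 ± 0.738% with KI-ARv-03 (SD, n = 3). Conversion of DNAJA1 rose from 0 h to 4 h and 8 h of DMSO (limma adjusted p = 0.000157 and 5.61e-10), and was lower than with DMSO in the KB742 groups of 4 h (0.00295) and 8 h (2.66e-08) and the KI-ARv-03 group of 8 h (1.05e-07). At 4 h with KI-ARv-03 the values were 2.53, 0.927 and 1.19%, the first from the library that stands apart, and the adjusted p was 0.0574; DNAJA1 was called there without that library.

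The DNAJA1 level fell with time under DMSO. It was 176, 200 and 174 CPM at 0 h and 91.8, 83.6 and 87.4 CPM at 8 h, a log2 difference of -1.05 ± 0.26 (SE, limma adjusted p = 0.0017), with no overlap between the groups. With KB742 at 8 h it was 156, 80.1 and 89.1 CPM, and with KI-ARv-03 127, 82.0 and 175 CPM. Both groups overlapped DMSO and reached higher, and neither was called.

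HSPA8, the HSP70 that is made at all times, was lower in conversion with both compounds at 8 h, from few reads. Under DMSO its conversion was 1.74, 1.11 and 0.045% at 0 h, 4.13, 3.77 and 3.68% at 4 h, and 18.0 and 26.1% in the 2 libraries of 8 h with enough reads, which held 34 and 49. With KB742 at 8 h it was 3.01 and 0.357%, the other library having 1 read, and with KI-ARv-03 6.64, 2.08 and 0.927%. The compound values at 8 h all lay below the DMSO values, by 20.4 percentage points between means for KB742 (limma adjusted p = 1.87e-06) and 18.8 for KI-ARv-03 (3.41e-06). Conversion was higher with DMSO at 8 h than at 0 h (adjusted p = 2.88e-08). It was also called at 4 h (0.038), a call lost without 0 h replicate 3 (0.222) and without each of the DMSO 4 h libraries (0.0854, 0.0722 and 0.077). That call was lost too without the 3 libraries that stand apart (0.198) and with the 25 genes without residual spread kept (0.0636). The HSPA8 level was 36.3, 52.8 and 79.6 CPM at 0 h and 20.7, 18.9 and 14.4 CPM at 8 h of DMSO, which did not overlap yet missed the threshold (adjusted p = 0.066).

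HSPA1A and HSPA1B encode nearly the same inducible HSP70 protein from neighbouring genes. Their GENCODE transcripts are identical at 2297 of 2605 aligned bases, while their last 250 bases are identical at 134 of 270, so reads from the ends can differ but the split between the genes by the authors' counting is uncertain. HSPA1B had 93.4, 107.1 and 88.0 CPM at 0 h, 56.9, 74.4 and 44.9 CPM at 2 h of DMSO, 29.7, 42.9 and 46.6 CPM at 4 h, and 3.65, 9.24 and 0 CPM at 8 h. The last of these libraries had 0 reads, which allows up to 2.70 CPM (3 reads, counting error only). HSPA1A had 25.4, 17.7 and 31.6 CPM at 0 h and 4.87, 5.39 and 7.21 CPM at 8 h of DMSO. From 0 h to 8 h HSPA1B fell by 4.74 ± 0.68 and HSPA1A by 1.90 ± 0.32 on the log2(CPM + 1) scale (SE, limma adjusted p = 4.42e-06 and 3.37e-05), and both calls held when each library was left out.

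HSPA1A and HSPA1B were low at 8 h with the compounds too. HSPA1B then had 10.5, 4.97 and 6.58 CPM with KB742 and 11.0, 0 and 12.9 CPM with KI-ARv-03, where 0 reads allow up to 1.57 CPM. HSPA1A had 5.67, 2.98 and 2.92 CPM with KB742 and 6.91, 4.70 and 5 CPM with KI-ARv-03. Neither gene was called against DMSO at any time by level. By conversion, HSPA1B was at 4.18, 4.30 and 4.21% with DMSO at 4 h and at 1.24, 1.55 and 2.42% with KB742, which did not overlap (limma adjusted p = 0.0377). That call was lost without any 1 of the DMSO libraries (0.0781, 0.0776 and 0.089) and without KB742 4 h replicate 1 (0.142) or replicate 2 (0.105), and on the log2 scale (0.167). HSPA1B conversion was higher with DMSO than at 0 h at 2 h (0.0431) and 4 h (0.000117), the former lost without DMSO 2 h replicate 3 (0.347), replicate 2 (0.0718) or any 1 of the 0 h libraries (0.0601, 0.0947 and 0.199). The 2 h call of HSPA1B was lost too without the 3 libraries that stand apart (0.153) and with the 25 genes without residual spread kept (0.0519). HSPA1A conversion at 4 h was 1.39, 3.21 and 3.11% with DMSO beside 1.56, 0.145 and 0% at 0 h, which overlapped (adjusted p = 0.0332). The call was lost without 0 h replicate 2 (0.0891) or replicate 3 (0.186) and without DMSO 4 h replicate 2 (0.0975) or replicate 3 (0.106). Dropping the 3 libraries that stand apart ended this HSPA1A call too (0.120). At 8 h too few reads remained to test either gene by conversion.

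HSPH1, the HSP110 nucleotide exchange factor, was the 1 member called higher in level with a compound, relative to the bulk of genes. At 8 h its level was 59.6, 65.1 and 42.3 CPM with DMSO, 129, 69.1 and 103 CPM with KB742, and 122, 80.4 and 131 CPM with KI-ARv-03. All compound libraries lay above all DMSO libraries. The difference with KI-ARv-03 was 0.98 ± 0.24 (SE, limma adjusted p = 0.0258), and it was lost without DMSO 8 h replicate 3 (0.178), KI-ARv-03 8 h replicate 1 (0.115) or replicate 3 (0.166), and with the 2 groups fitted alone (0.212). With KB742 the adjusted p was 0.0857, and DESeq2 called HSPH1 there. The HSPH1 level at 0 h was 68.0, 63.9 and 44.2 CPM, in the range of DMSO at 8 h, and its conversion stayed under 2% in all 30 libraries with no call. At 8 h, 1 of 10 members was called with KB742, against 1.77% of all genes. The same count for KI-ARv-03 was 2 of 10, against 2.92%.

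**Figure D3:**
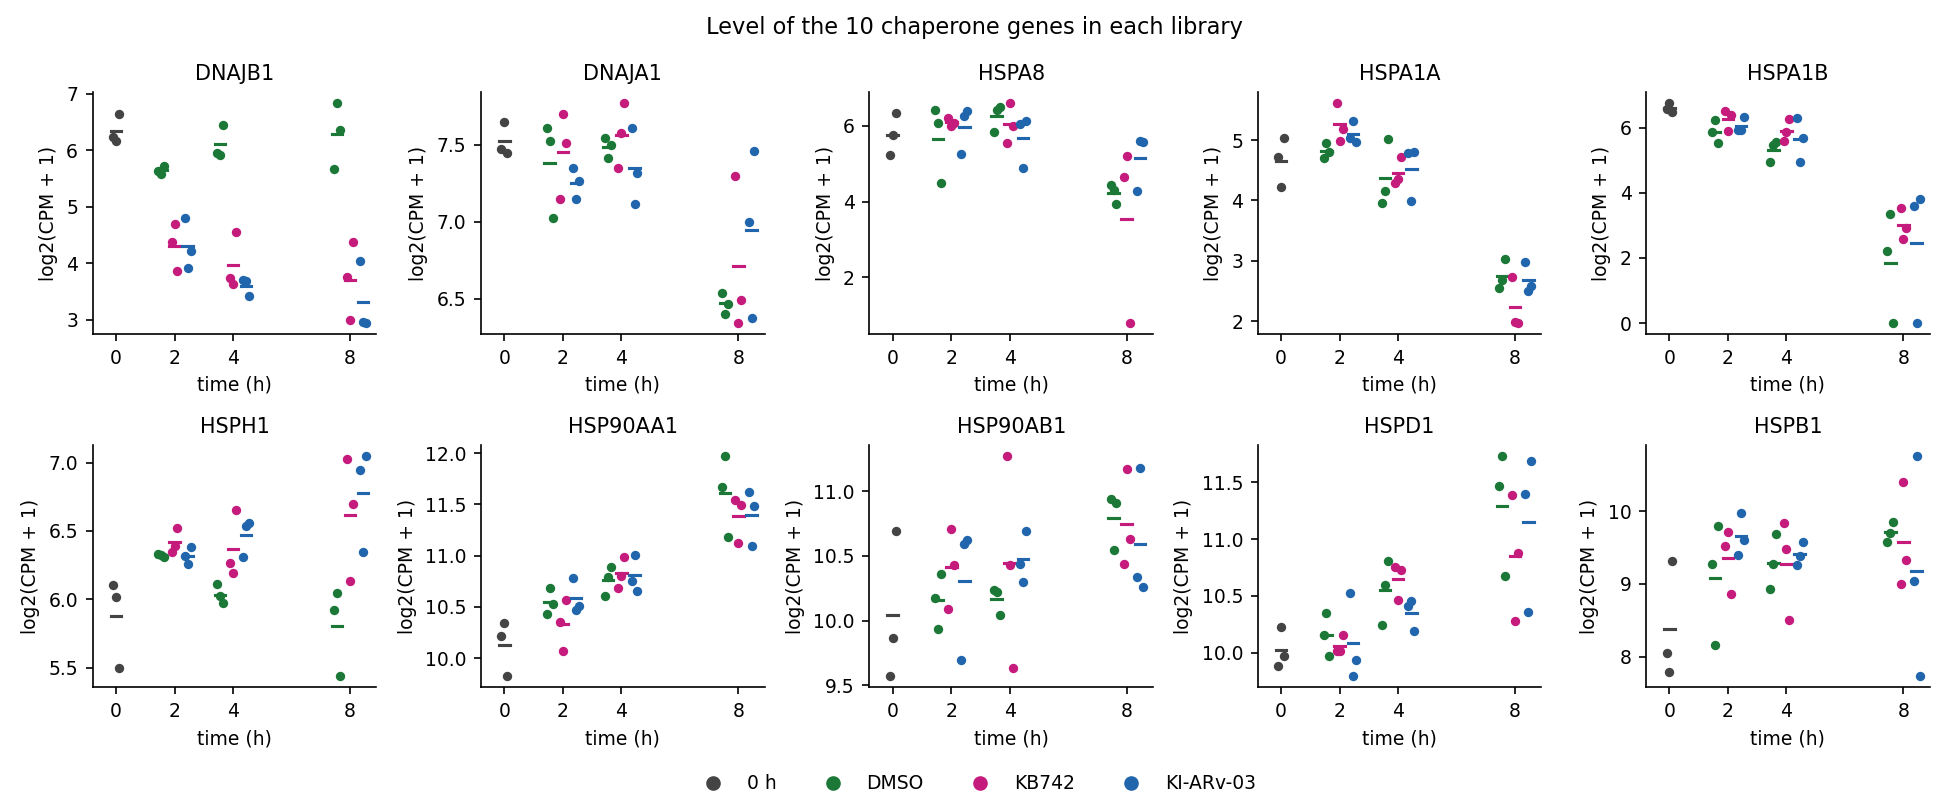
Level of each member as log2(CPM + 1) against time in h, 1 point per library, with bars at the group means and a separate y axis, not starting at 0, for each gene. DNAJB1 separates the compounds from DMSO, HSPA1A and HSPA1B are low in all groups at 8 h, and HSP90AA1 is high in all groups at 8 h.

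HSP90AA1, the stress-inducible cytosolic HSP90, rose with time relative to the bulk of genes. Its level was 1189, 1297 and 904 CPM at 0 h and 3255, 4010 and 2324 CPM at 8 h of DMSO, a log2 difference of 1.48 ± 0.23 (SE, limma adjusted p = 1.44e-05). HSPD1 moved likewise, from 942, 1196 and 1001 CPM to 2834, 3391 and 1631 CPM (1.26 ± 0.31, adjusted p = 0.00174). HSPB1 went from 264, 221 and 639 CPM to 761, 832 and 920 CPM (1.32 ± 0.53, adjusted p = 0.04), a call lost without any 1 library other than 0 h replicate 3 (adjusted p from 0.0646 to 0.173) and by edgeR (0.0749) and DESeq2 (0.0733). None of these groups overlapped. HSP90AB1, the constitutive HSP90, had 759, 934 and 1651 CPM at 0 h, the highest in the library that stands apart, and 1961, 1491 and 1920 CPM at 8 h (adjusted p = 0.0747), and it was called without the 3 libraries that stand apart.

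With the scaling as deposited, the median of all genes moved by -0.579 in the comparison of 8 h with 0 h, and the rises were then 0.74 for HSP90AA1, 0.53 for HSPD1 and 0.58 for HSPB1, none of them called (limma adjusted p = 0.0545, 0.301 and 0.355). The falls of DNAJA1, HSPA1A and HSPA1B were called under that scaling too. At the main scaling 6 of 10 members were called at 8 h, 3 lower and 3 higher, where 48.6% of all genes were called, 29.1% lower and 19.5% higher. At 2 h and 4 h of DMSO 0 of 10 members were called by level with limma, against 2.56% and 20.1% of all genes. At an unadjusted p under 0.05 that was 0 members at 2 h and 1 at 4 h; edgeR called 0 at both times, and DESeq2 called 0 at 2 h and, at 4 h, HSP90AA1 and HSPA1B. With the compounds, the levels of HSP90AA1, HSP90AB1, HSPD1 and HSPB1 overlapped DMSO at 8 h and none was called at any time.

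HSP90AA1 has the deepest counts of the members, 2580 to 10409 reads per library. No library lacked s4U, so the conversion that would be seen without label is not known. The conversion of HSP90AA1 was low. It was 0.267, 0.164 and 0.255% at 0 h, 0.413, 0.458 and 0.539% at 4 h of DMSO, and 0.449, 0.532 and 0.550% at 8 h. At 8 h it was 0.176, 0.200 and 0.244% with KB742 and 0.236, 0.190 and 0.157% with KI-ARv-03, close to the 0 h values and below all DMSO values (limma adjusted p = 0.00819 and 0.00508). Against 0 h it rose at 4 h (0.0318) and 8 h (0.0115); the 8 h call was lost without 0 h replicate 2 (0.058), and the 4 h call without 0 h replicate 2 (0.119) or replicate 3 (0.0576) or DMSO 4 h replicate 2 (0.0615) or replicate 3 (0.114). HSP90AB1, HSPD1 and HSPB1 had conversion at or under 0.290% in every library but 1. That library, KI-ARv-03 4 h replicate 1, stood at 0.924, 0.498 and 0.752%, and its HSPH1 at 1.94%. Without the 3 libraries that stand apart, HSP90AA1 and DNAJA1 were called lower with KI-ARv-03 at 4 h, and HSP90AB1 and HSPB1 joined the calls at 8 h.

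**Figure D4:**
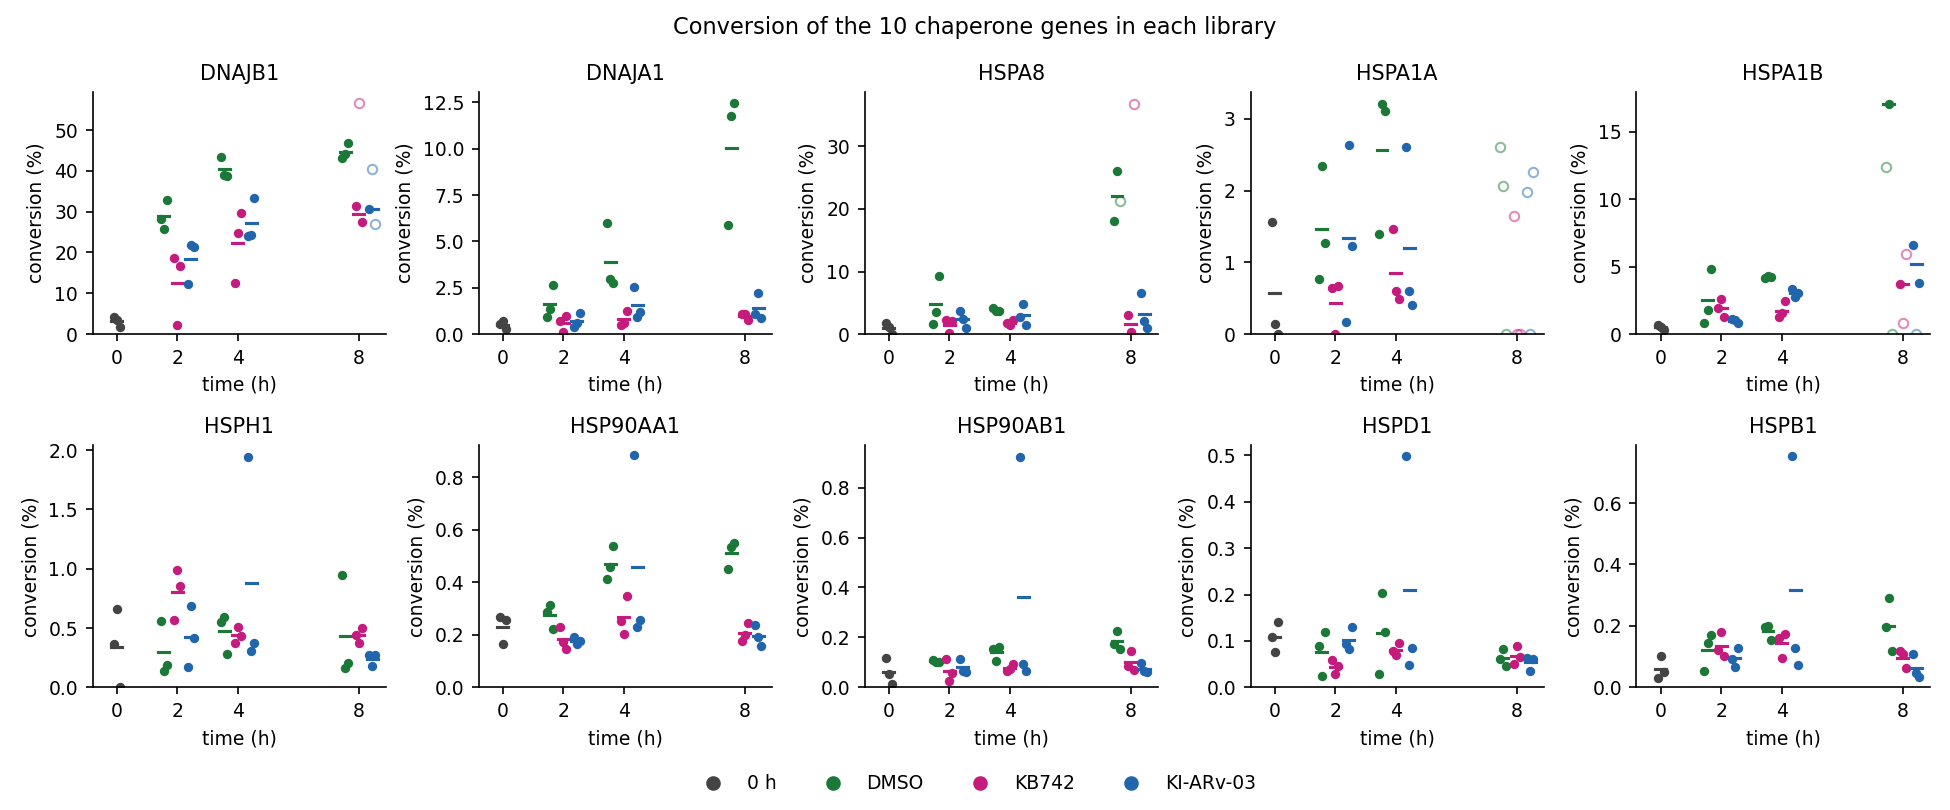
Conversion level of each member in percent against time in h, 1 point per library, with bars at the group means and a separate y axis from 0 for each gene; open points are values behind fewer than 20 reads. DNAJA1, HSPA8 and HSP90AA1 rise under DMSO by 8 h and stay low with both compounds, and KI-ARv-03 4 h replicate 1 stands high for the 5 members from HSPH1 to HSPB1.

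By conversion, 1, 3 and 4 members were called with KB742 at 2, 4 and 8 h, all lower, of 10, 10 and 8 tested. Among all genes 0.877%, 17.7% and 34.5% were called, so that the members' shares of 10, 30 and 50% stand beside a broad fall. With KI-ARv-03 it was 0 and 0 of 10 members at 2 and 4 h, and 3 of 7 at 8 h, all lower, beside 0.906%, 7.66% and 36.9% of all genes. At an unadjusted p under 0.05 the zeros were 1 and 2 members, and no other tool was run on conversion. Under DMSO against 0 h, 2 and 6 of 10 members and 4 of 8 were called at 2, 4 and 8 h, all higher, beside 9.01%, 34.6% and 42.8% of all genes. The median conversion difference at 8 h, on the arcsine scale, was -0.02 over the members tested and -0.04 over all genes with KB742, and -0.02 and -0.04 with KI-ARv-03. The median level difference with KB742 at 8 h was -0.17 over the members and -0.01 over all genes, and with KI-ARv-03 -0.10 and 0.02.

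**Figure D5:**
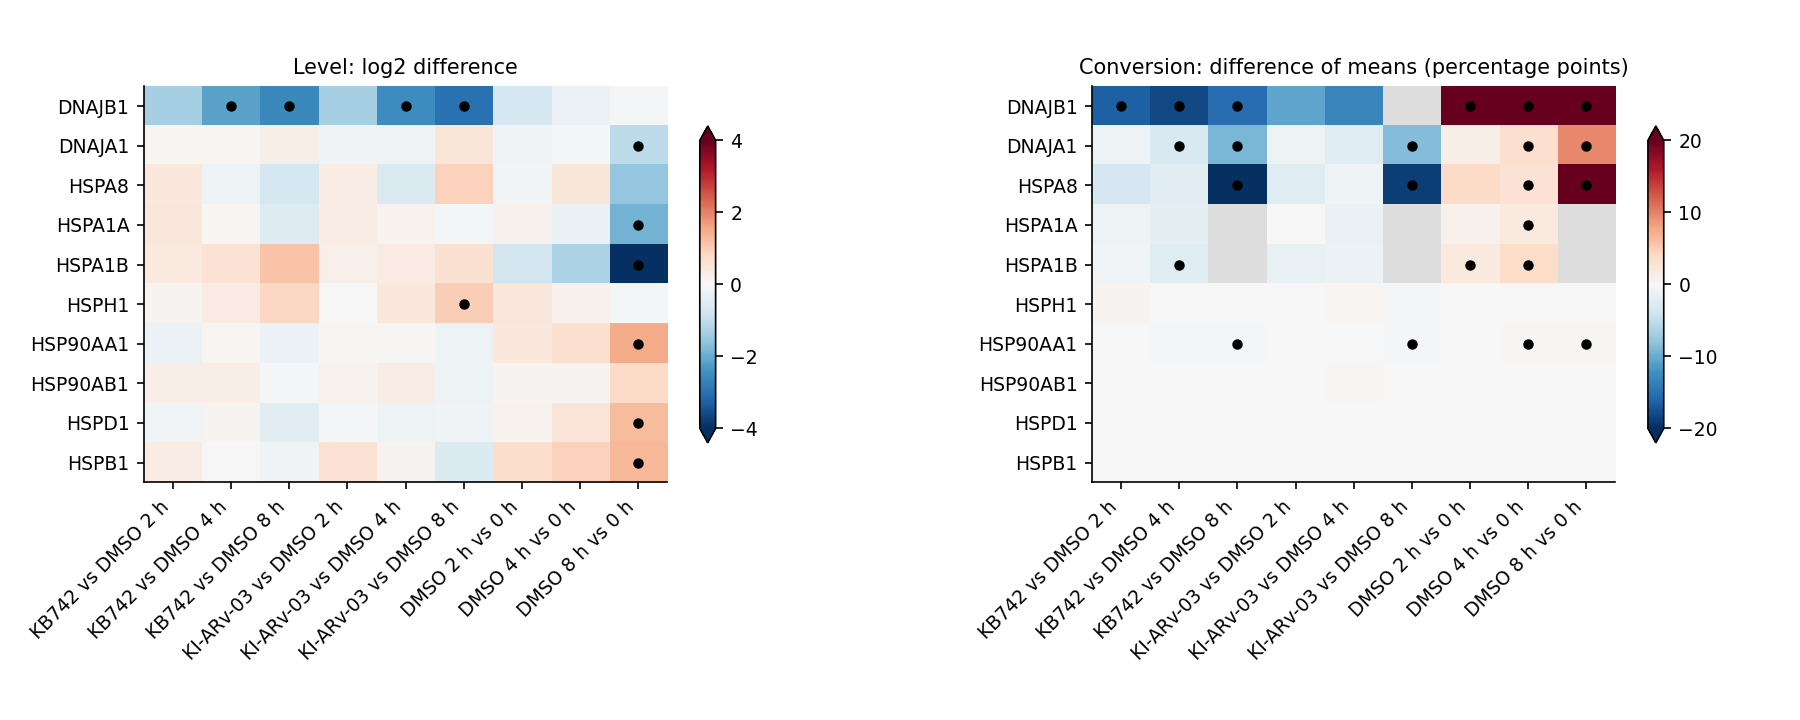
Difference of each member in the 9 comparisons: log2 difference in level (left) and difference of mean conversion in percentage points (right), with dots at calls (adjusted p under 0.05) and grey where too few reads allowed no test; colours saturate at the ends of the scales. DNAJB1 is the member with a dot for lower level with the compounds, at 4 and 8 h with each. Dots for lower conversion at 8 h are shared by DNAJA1, HSPA8 and HSP90AA1 with each compound. DNAJB1 has such a dot with KB742 and could not be tested with KI-ARv-03 at 8 h.

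The wider chaperone network was followed in a list of 47 further genes, of which 40 could be tested by level. Among these, 2 of 40 were called with KB742 at 8 h, beside 1.77% of all genes called in either direction. With KI-ARv-03 it was 1 of 40, beside 2.92%. All these list genes were lower. Of all 11430 genes, 66 were called lower and 136 higher with KB742, and 106 lower and 228 higher with KI-ARv-03. BAG1, a nucleotide exchange factor of HSP70, had 423 ± 63.4 CPM with DMSO at 8 h, 221 ± 23.3 CPM with KB742 and 200 ± 44.0 CPM with KI-ARv-03 (SD, n = 3; limma adjusted p = 0.0265 and 0.00683). Both BAG1 calls were lost with the scaling as deposited (0.225 and 0.0677). The KB742 one was also lost when any 1 library other than DMSO 8 h replicate 1 was left out (0.0535 to 0.169), and the KI-ARv-03 one without DMSO 8 h replicate 3 (0.0574) or KI-ARv-03 8 h replicate 3 (0.0786). The other gene called with KB742 was HSPA2, a testis-enriched HSP70 named after its values were seen, at 7.29 ± 1.51 CPM with DMSO and 1.60 ± 1.17 CPM with KB742 (adjusted p = 0.0399), from 1 to 7 reads per library with KB742. That call was lost without any 1 library other than KB742 8 h replicate 1 (0.0654 to 0.203), with the scaling as deposited (0.179) and by edgeR (0.109) and DESeq2 (0.0701). Under DMSO against 0 h, 3 list genes were higher and 5 lower at 4 h, and 9 were higher and 8 lower at 8 h. These are 20% and 42.5% of the list, near the shares of all genes called (20.1% and 48.6%).

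By conversion, 7 of 36 list genes with KB742 at 4 h and 10 of 30 at 8 h were called, and with KI-ARv-03 3 of 34 and 9 of 30, all lower. The list's shares for KB742 were 19.4% and 33.3%, near the 17.7% and 34.5% of all genes. For KI-ARv-03 they were 8.82% and 30%, beside 7.66% and 36.9%. DNAJB2, a J-domain protein, was at 7.84 ± 0.307% with DMSO at 8 h, 0.242 ± 0.420% with KB742 and 1.01 ± 1.36% with KI-ARv-03 (SD, n = 3; limma adjusted p = 2.48e-05 and 0.000292). BAG5, of the BAG family, was at 14.1 ± 1.27% with DMSO at 4 h and at 5.44 ± 2.96% with KB742 (adjusted p = 0.00728), a call lost without KB742 4 h replicate 1 (0.0602). HSPA13, a microsomal HSP70, was at 7.98 ± 4.72% and 1.13 ± 0.800% in the same groups (0.00125). BAG3, a co-chaperone induced by HSF1, was at 20 ± 7.58% with DMSO at 4 h (n = 2) and 3 ± 1.97% with KB742 (n = 3; 0.000264). HSF1 itself was at 2.66 ± 0.979% with DMSO at 8 h, 0.521 ± 0.426% with KB742 and 0.796 ± 0.585% with KI-ARv-03 (0.00509 and 0.0201). On a log2 scale of conversion the calls of BAG5 (0.213), HSPA13 (0.0555) and BAG3 (0.121) at 4 h were lost. The second HSF1 call was lost on that scale (0.0864) and without DMSO 8 h replicate 3 (0.111) or KI-ARv-03 8 h replicate 1 (0.0729) or replicate 3 (0.0771). The HSP90 co-chaperones FKBP4, PTGES3 and STUB1 were called lower at 8 h with each compound. UNC45A was called lower with KB742 at 8 h, PPID with KB742 at 4 h, and CACYBP with KI-ARv-03 at 8 h. Of these calls only that of CACYBP held without each library in turn. With KI-ARv-03 at 4 h, HSPA13, DNAJB2 and BAG5 were called lower. Each of those calls was lost on the log2 scale (0.411, 0.357 and 0.580) and in some fits with a library left out.

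The 5 genes whose level pattern over the 30 libraries was most like that of DNAJB1, by Pearson correlation of log2(CPM + 1), were ZNF557 (0.887), PUS3 (0.886), FTSJ2 (0.885), KIAA0174 (0.884) and IST1 (0.883). The last 2 are an older and a current name of the same gene, with the same reads in most groups. These values describe libraries that share groups and treatments, so no p is given. PUS3 went from 39.9 CPM with DMSO at 8 h to 12.4 CPM with KB742 and 5.58 CPM with KI-ARv-03, and FTSJ2 from 70.6 CPM to 21.7 and 20.6 CPM. No other member of the 10 is among these 5 genes.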

How the data were processed

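RNA of 22Rv1 cells was measured by SLAM-seq in 30 libraries of 10 groups, prepared as 3′-end libraries per the labels' protocols. The authors deposited, per RefSeq transcript and library, a normalised signal named CPM and a conversion level as a fraction; the build was hg19 per the submitters' processing notes, and no source used here names the aligner or the conversion caller. Groups were taken from titles, since for 8 of 9 samples titled 4 h another label field names a different time; the KB742 dose is the protocol's 1.2 µM, as a treatment field differs, and a protocol field names DMSO for every sample.

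The deposited CPM signal was turned back into whole reads (100% of values within 0.05 of a whole number), because library sums were 0.84 to 1.38 of the nominal total. A symbol was found for 99.566% of 50925 identifiers, and 0.0861% of reads had none. Overlapping transcripts repeat the same reads, so 1 transcript stood for a gene. The level test was limma 3.58.1, with trended variances, on log2 of TMM-rescaled CPM with a pseudocount of 1, after edgeR's filter at a minimum count of 10. The conversion test was limma on arcsine square roots, from 20 reads up, with at least 2 values per group and 25 genes without residual spread left out. Both fits used all 30 libraries and were tried on simulated data for KI-ARv-03 against DMSO at 4 h. The starting conversion in the simulation was far above the mean of every library here, so low conversion was not covered. edgeR 4.0.16 and DESeq2 1.42.0 on the recovered counts were alternatives; with KB742 at 8 h they called 118 and 237 genes, with KI-ARv-03 at 8 h 226 and 462. Other alternatives were the scaling as deposited, a pseudocount of 0.25, no filter, summed transcripts, 2 groups alone, a replicate block, 50 reads, a log2 conversion scale and leaving out libraries. Promoters are from RefSeq, GRCh38.p14, and all 10 members matched. Python 3.11.15 and R 4.3.3 were used.

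The members and lists were chosen with earlier results of these data known. All members were named; of the network list, the 12 genes with the smallest adjusted p against DMSO were named, and the 5 genes most like DNAJB1. Leaving out the 3 libraries that stand apart was an alternative chosen after seeing the data. The plan for the conversion test did not name leaving out the 25 genes, so the main fit departs from it there. Keeping these genes was run as an alternative, also added after seeing the data. The limits given for 0 reads cover counting error only. One marker gene of the list is not reported here.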

Additional observations from a re-analysis of the deposited data

Results flagged for a closer look

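For DNAJA1 and HSPA8 the gap in conversion between compound and DMSO was not the same at 8 h as at 2 h, by a test of the difference itself (limma on the arcsine scale, adjusted over all genes tested). For DNAJA1 with KB742 the gap went from -1.04 percentage points at 2 h to -9.07 at 8 h, a change of -8.03 (adjusted p = 0.00324). With KI-ARv-03 it went from -0.948 to -8.65, a change of -7.70 (adjusted p = 0.00523). For HSPA8 with KB742 it went from -3.31 to -20.4, a change of -17.1 (adjusted p = 0.0129), and with KI-ARv-03 from -2.44 to -18.8, a change of -16.4 (adjusted p = 0.0118). The HSPA8 values at 8 h rest on 2 DMSO libraries. At 2 h HSPA8 was at 1.69, 3.46 and 9.27% with DMSO, the last from 41 reads, and overlapped each compound. On a log2 scale none of the 4 changes was called (adjusted p from 0.387 to 0.601). Both compounds share their DMSO libraries. Among all genes, the same change was called lower for 286 and higher for 1 of 6166 tested with KB742. With KI-ARv-03 it was called lower for 337 and higher for 1 of 6215. The DMSO means themselves went from 1.64% at 2 h to 10.0% at 8 h for DNAJA1, and from 4.81% to 22.1% for HSPA8. The gap at 2 h could not exceed the DMSO mean of that time. For DNAJB1 conversion, the comparison of 8 h with 2 h was not called with KB742 (adjusted p = 0.728) and could not be tested with KI-ARv-03.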

How the results depend on the processing

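Of the 243 alternative values of the member counts, 195 were within 1.5 times the main count and 48 were not; of the alternative values of single genes, 676 kept direction and side of the threshold, 146 lost the call, 2 gained one and 4 turned sign. By level, the count with KB742 at 4 h (1) was 0 with the scaling as deposited and with the 2 groups alone. At 8 h with KB742 (1) it was 2 with the scaling as deposited, with summed transcripts and with DESeq2, and 0 with the 2 groups alone; with KI-ARv-03 (2) it was 1 with the 2 groups alone. At 4 h of DMSO (0) it was 1 with the scaling as deposited, summed transcripts or the 2 groups alone, and 2 with DESeq2. By conversion, KB742 at 2 h (1) gave 0 on the log2 scale, with the 2 groups alone, without the 3 libraries that stand apart and with the genes without spread kept; KB742 at 4 h (3) gave 1 on the log2 scale and 5 with the 2 groups alone; KB742 at 8 h (4) gave 2 from 50 reads up. KI-ARv-03 gave 1 with the 2 groups alone at 2 h and 4 h and 1 from 50 reads up at 4 h (0 each). Without the 3 libraries that stand apart it gave 2 at 4 h and 5 at 8 h (3). DMSO at 2 h (2) gave 1 on the log2 scale, without the 3 libraries that stand apart and with the genes without spread kept.

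Leaving out 1 library at a time, the counts by level ranged from 0 to 1 for KB742 at 4 h, 1 to 2 at 8 h, 1 to 3 for KI-ARv-03 at 8 h and 5 to 7 for DMSO at 8 h. By conversion they ranged from 0 to 1, 1 to 3 and 2 to 3 for KB742 at 2, 4 and 8 h, 0 to 2 and 2 to 3 for KI-ARv-03 at 4 and 8 h, and 1 to 3, 3 to 6 and 3 to 4 for DMSO at 2, 4 and 8 h. The DNAJB1 level at 8 h of DMSO against 0 h (-0.05) turned to 0.014 with edgeR, 0.10 without the 3 libraries that stand apart, 0.08 without 0 h replicate 3 and 0.26 without DMSO 8 h replicate 1, and ranged from -0.39 to 0.26 over the libraries left out, never called. The causes were not tested. The scaling as deposited moved the median of all genes by -0.159, -0.387 and -0.579 for DMSO at 2, 4 and 8 h, -0.137, 0.180 and 0.267 for KB742 and -0.052, 0.107 and 0.224 for KI-ARv-03.

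Replicate numbers do not pair the samples: of 135 same-numbered pairs across groups, 45 had correlated deviations over 0.1 (r from -0.586 to 0.613), and 9 of 30 libraries correlated best with their own number. With the replicate block, 17 of the 18 member counts were within 1.5 times the main count, and DMSO at 2 h by conversion gave 1 for 2. The block ended the conversion calls of HSPA1B with KB742 at 4 h (0.0501) and DMSO at 2 h (0.062), HSPA8 with DMSO at 4 h (0.0527) and BAG5 with KI-ARv-03 at 4 h (0.058). Depth limits conversion: HSPA1A and HSPA1B could not be tested at 8 h, nor DNAJB1 with KI-ARv-03, and 3 libraries per group leave wide errors for low genes.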
